A study of Mus musculus with 15 samples.

Results

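RNA of 36 genes of glycolysis and the hypoxia response was followed across 5 related mouse mammary lines, each hybridised to 3 Affymetrix arrays. The genes came from a list of glucose and lactate transporters, the glycolytic enzymes, the lactate dehydrogenases with Pdk1, the hypoxia-inducible factors with their prolyl hydroxylases, and well-known hypoxia-induced genes. Each gene was represented by whichever of its probe sets was brightest on average across the 15 arrays. Of the 36 genes, 33 were among the 18193 genes tested. Gapdh was left out of the gene test because its probe sets are shared with other symbols or are array controls, and Gpi1 and Eno1 were not analysed here. Ero1l of the list is named Ero1a below, its present symbol.

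L2P is a lung metastasis line of in vivo passage 2, L1P a lung metastasis line of passage 1, and M1P a line from a primary mammary tumour of passage 1. All 3 derive from E1KD, which is NMuMG with hnRNP E1 silenced, and they carry the silencing too, by a method not given in the sources used here. In these passages cells were injected into the mammary fat pad of NOD/SCID mice, which lack B and T cells but keep myeloid cells. E1KD had no selection in mice, and NMuMG, the wild-type parent of them all, is an epithelial cell line of normal mouse mammary gland that forms no tumours. All lines were grown in the same serum-containing medium before RNA was taken. Every group is 1 line, so differences compare lines and not independently derived ones. There is no control vector line, so the effect of silencing and other differences between E1KD and NMuMG cannot be told apart. The labels number 3 replicates per line and do not say whether these were separate cultures, so p-values measure a spread between arrays that may be technical.

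Glycolysis turns glucose into pyruvate. Phosphofructokinase, a tetramer built from the liver (Pfkl), muscle (Pfkm) and platelet (Pfkp) subunits, catalyses its committed step, and lactate dehydrogenase with the proton-coupled lactate transporters disposes of the product. In low oxygen the prolyl hydroxylases of the Egln family no longer mark HIF-1 alpha and HIF-2 alpha for degradation through Vhl, and the stabilised factors, paired with Arnt, bind a short core motif and switch on glycolytic and other genes. Much of HIF control acts on protein stability, which arrays of RNA do not show. In the mammary gland and its tumours glucose enters mainly through Slc2a1, also known as GLUT1.

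The promoters of 4 members are shown because their RNA differed between lines in the comparisons below: Pfkp and Pfkl, subunits of 1 enzyme that differed in opposite directions, and Ero1a and P4ha1, hypoxia-induced genes that rose in L2P. The sequences are the 250 bases before the annotated start of the gene, from RefSeq on GRCm38.p6, read 5′ to 3′ on the strand of the gene. Capitals mark the core of the hypoxia response element, ACGTG or GCGTG, searched on both strands (on the opposite strand, CACGT or CACGC).
Pfkp, chr13:6648772-6649021, minus strand: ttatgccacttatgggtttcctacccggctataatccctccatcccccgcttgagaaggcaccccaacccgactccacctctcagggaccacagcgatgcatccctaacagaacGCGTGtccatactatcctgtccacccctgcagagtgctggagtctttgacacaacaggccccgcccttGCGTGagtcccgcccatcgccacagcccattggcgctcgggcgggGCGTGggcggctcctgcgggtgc
Pfkl, chr10:78009808-78010057, minus strand: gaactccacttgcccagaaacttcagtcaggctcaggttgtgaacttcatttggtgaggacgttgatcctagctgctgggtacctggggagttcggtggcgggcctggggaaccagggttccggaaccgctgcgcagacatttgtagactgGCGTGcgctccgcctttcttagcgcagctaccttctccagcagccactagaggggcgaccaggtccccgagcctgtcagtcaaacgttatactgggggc
Ero1a, chr14:45318573-45318822, minus strand: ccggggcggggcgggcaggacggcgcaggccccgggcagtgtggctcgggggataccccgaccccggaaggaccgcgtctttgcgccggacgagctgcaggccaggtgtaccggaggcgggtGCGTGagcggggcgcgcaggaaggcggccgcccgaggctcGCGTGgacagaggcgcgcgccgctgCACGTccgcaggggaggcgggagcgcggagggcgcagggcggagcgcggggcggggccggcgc
P4ha1, chr10:59323046-59323295, plus strand: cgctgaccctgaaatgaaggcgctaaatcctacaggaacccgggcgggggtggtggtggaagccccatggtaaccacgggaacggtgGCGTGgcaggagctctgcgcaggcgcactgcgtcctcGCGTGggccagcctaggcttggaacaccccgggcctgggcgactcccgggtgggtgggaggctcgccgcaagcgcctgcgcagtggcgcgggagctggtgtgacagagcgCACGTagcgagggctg
The Pfkp promoter held 3 cores, beginning at -136, -68 and -23 from the start. The Pfkl promoter held 1, at -99. Ero1a held 3, at -128, -88 and -63, and P4ha1 held 3, at -163, -126 and -16. Of the 36 genes, 32 were matched in the RefSeq promoter table. Over windows of 300 bases, which also take in the 50 bases after the start, 29 of the 32 (90.6%) had a core in at least 1 promoter, against 12628 of 27025 genes in all (46.7%). Counted per window, the share was 37 of 45 (82.2%), against 43.8% of all windows. The list was chosen to include hypoxia-induced genes, so these shares describe the list and test nothing. The members' windows were also rich in CG pairs, which both cores contain: the median was 21 per window, against 7 over all windows. Eno2, which rose from low signals in both lung lines, had no core in its window. A match describes the letters and is not a site shown to be bound.

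Several facts about the arrays bear on everything below. Signals are the authors' log2 values, ranging from 1.53 to 14.68 with a median of 4.196. Pcbp1, which encodes hnRNP E1, was at 8.15 ± 0.18 in L2P, 8.49 ± 0.42 in L1P, 9.83 ± 0.36 in M1P, 9.25 ± 0.22 in E1KD and 12.68 ± 0.10 in NMuMG (SD, n = 3), lower in all silenced lines than in their parent. Mammary epithelial markers averaged between 8.24 and 8.80 on every array, with 2 of 8 below the overall median. The M1P arrays stood apart from each other: they correlated at 0.931 to 0.978, against 0.979 to 0.996 within the other lines, and the median SD of the members was 0.38 in M1P, against 0.13 to 0.21 elsewhere. Set against the E1KD mean, M1P array 1 had 11 of 33 members more than 1 log2 unit away, array 2 had 4 and array 3 had 3. All lines share 1 estimate of spread per gene, so the members' calls for M1P are also given without arrays 1 and 2. This leaves M1P array 3 alone, assumed to vary like the arrays of the other lines. Of the 33 members 4, Slc2a3, Slc16a3, Adm and Car9, lay below the overall median in every line, where a low signal is not separated from none. Pfkp, Eno2, Epas1, Ak4, Slc2a6 and Car12 lay below that median in some lines and above it in others. Their called differences with a line mean below it are also given with lower signals raised to the median, as a lower bound.

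**Figure D1:**
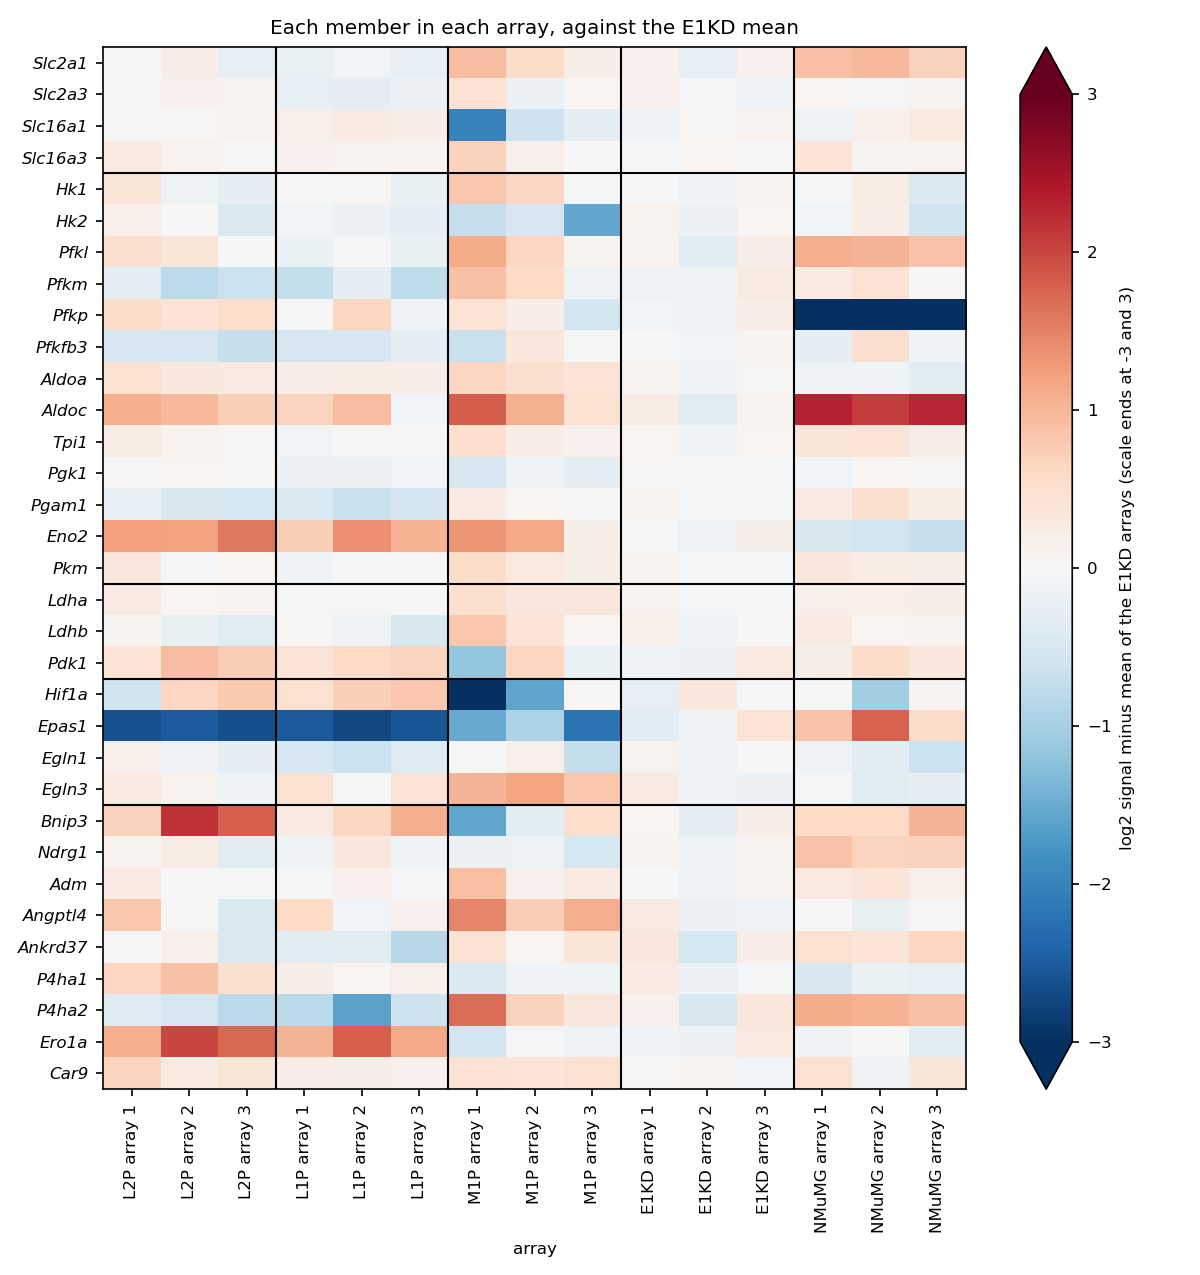
Log2 signal of 33 members (rows, grouped by role from transporters at the top to hypoxia-induced genes at the bottom) on each of 15 arrays (columns) minus the mean of the 3 E1KD arrays; red is higher, blue lower, and colours end at -3 and 3. Pfkp is low on the 3 NMuMG arrays, Epas1 is low on the 6 lung line arrays, and M1P array 1 differs most from E1KD, with 11 members more than 1 log2 unit away.

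Members were said to have risen or fallen in a comparison where limma's moderated test gave an adjusted p under 0.05, adjusted over all 18193 genes. In E1KD against NMuMG, 5 of 33 members passed (15.2%), where 9.49% of all genes did. Pfkp rose, where 3% of all genes rose, and Aldoc, Pfkl, Slc2a1 and Ndrg1 fell, where 6.49% fell. In M1P against E1KD 12 members passed (36.4%), where 27.6% of all genes did. Egln3, Aldoc, Angptl4, Eno2, Slc2a1, Aldoa, Car9 and Ldha rose, where 17.7% of all genes rose, and Epas1, Slc16a1, Hk2 and Pgk1 fell, where 9.86% fell. In L1P against E1KD 4 members passed (12.1%), where 2.48% of all genes did. Ero1a and Eno2 rose, where 1.19% of all genes rose, and Epas1 and Pgam1 fell, where 1.29% fell. In L2P against E1KD 4 members passed (12.1%), where 3.78% of all genes did. Ero1a, Eno2 and P4ha1 rose, where 2.14% of all genes rose, and Epas1 fell, where 1.64% fell. In L1P against M1P 17 members passed (51.5%), where 39.5% of all genes did. Of these 4 rose, Hif1a and Ero1a by most, where 13.6% of all genes rose, and 13 fell, P4ha2, Epas1 and Pfkm by most, where 25.9% fell. In L2P against L1P 0 members passed in limma's test, where 0.143% of all genes did (0.0934% higher and 0.0495% lower), and 1 had an unadjusted p under 0.05.

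The arrays of the lines did not overlap in 19 members in E1KD against NMuMG, where they did not in 36% of all genes. The like counts were 16 in M1P against E1KD (40.2% of all genes), 17 in L1P against E1KD (23.8%), 13 in L2P against E1KD (20%), 10 in L2P against L1P (9.28%) and 22 in L1P against M1P (49.6%). The median log2 difference of the members and that of all genes were -0.16 and -0.07 in E1KD minus NMuMG, 0.28 and 0.20 in M1P minus E1KD, 0.00 and -0.03 in L1P minus E1KD, 0.08 and 0.00 in L2P minus E1KD, 0.14 and 0.02 in L2P minus L1P, and -0.33 and -0.25 in L1P minus M1P. The E1KD arrays enter 4 of the 6 comparisons, and the members were chosen with results of these data known, so these counts are descriptions of the list. Without M1P arrays 1 and 2, whose spread enters every test, the counts were 8 for E1KD against NMuMG (19% of all genes), 2 for M1P (4.45%), 5 for L1P (5.45%) and 8 for L2P against E1KD (7.43%), 0 for L2P against L1P (0.379%) and 4 for L1P against M1P (7.29%). The count for E1KD against NMuMG was 2 without E1KD array 2 (5.49% of all genes) and 3 without NMuMG array 1 (6.26%), and that for L1P against E1KD was 1 or 2 without any 1 array of these lines (1.5% to 1.64%). When arrays were scaled to their 75th percentile, M1P against E1KD gave 13 up and 2 down in place of 8 and 4, with 43.2% of all genes called, and L1P against M1P gave 3 and 20 in place of 4 and 13, with 60.8%.

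**Figure D2:**
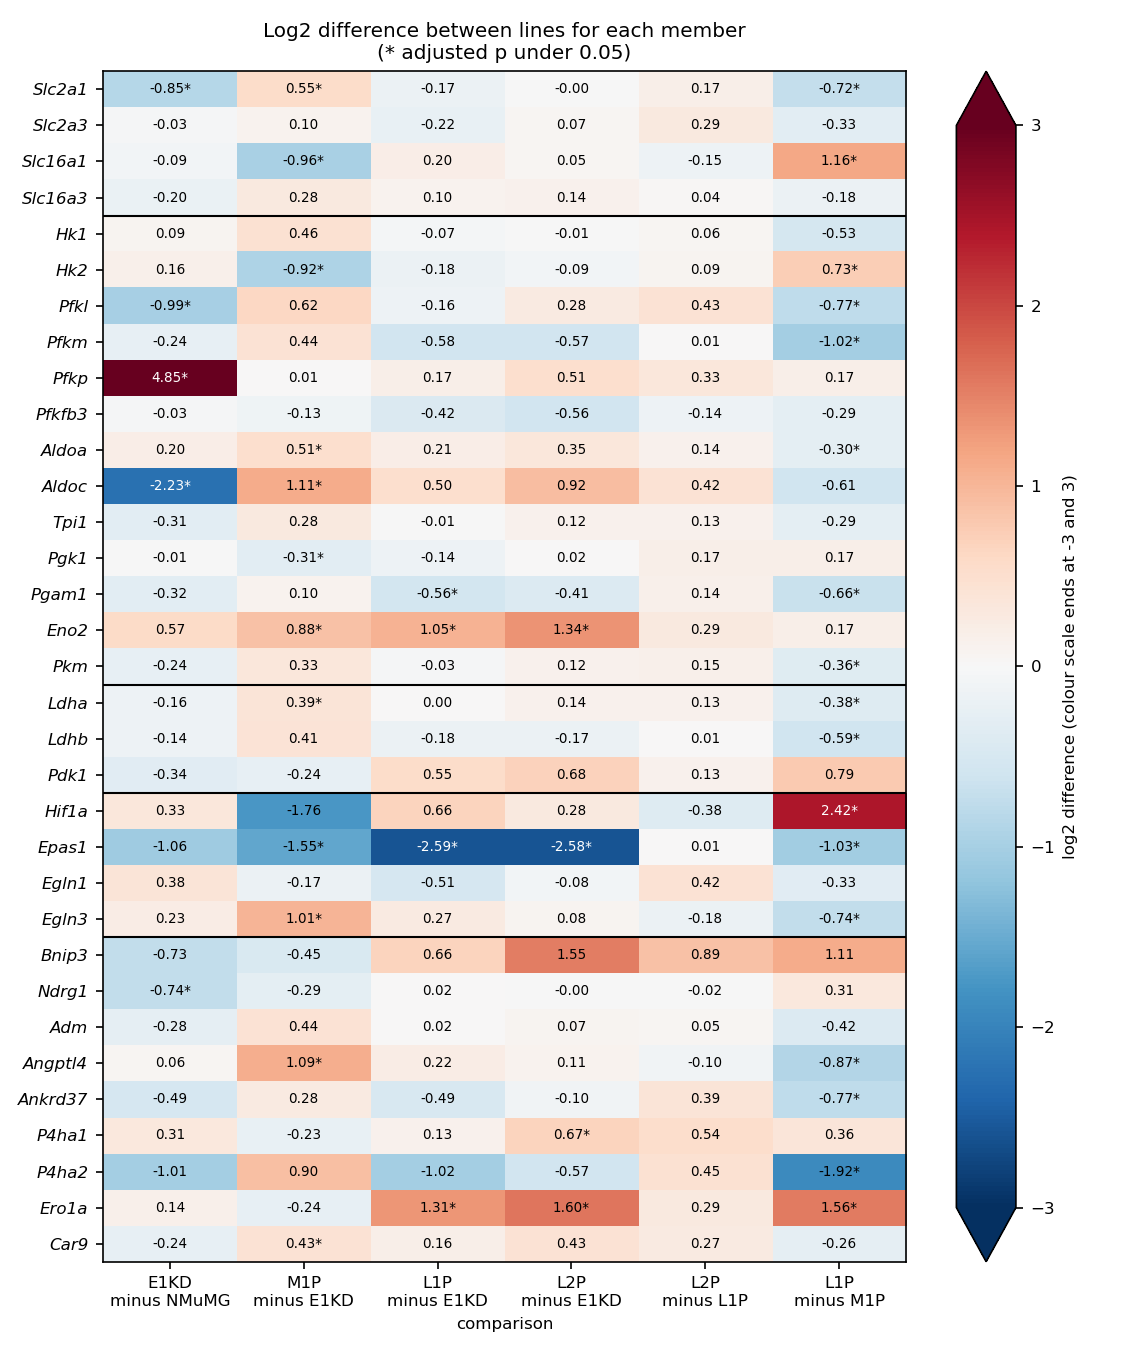
Log2 difference of each of 33 members (rows, grouped by role) in each of 6 comparisons (columns), with the value printed and a star where limma's adjusted p is under 0.05. The largest value is that of Pfkp in E1KD minus NMuMG at 4.85, and the columns of M1P hold 12 and 17 stars.

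The glucose transporter Slc2a1 was lower in the silenced line than in the parent. Its log2 signal was 10.29, 9.90 and 10.28 in E1KD, against 11.05, 11.13 and 10.85 in NMuMG. The arrays did not overlap, and Slc2a1 fell by 0.85 ± 0.19 (SE, limma adjusted p = 0.0105), with both of its other probe sets lower too. Without E1KD array 2 the adjusted p was 0.0606. In M1P it was 11.08, 10.72 and 10.32, of which array 1 lay among the NMuMG values and array 3 close to E1KD. Against E1KD it rose by 0.55 ± 0.19 (adjusted p = 0.0451), a call lost without M1P array 1 (difference 0.36), without array 2 and without any 1 of the E1KD arrays. The lung lines stayed near E1KD, at 10.19, 10.36 and 9.91 in L2P and at 9.96, 10.07 and 9.92 in L1P. L2P minus E1KD was 0.00 ± 0.19 and L1P minus E1KD was -0.17 ± 0.19, and neither passed, nor did L2P minus L1P (0.17 ± 0.19). L1P minus M1P was -0.72 ± 0.19 (adjusted p = 0.0137). Slc2a3, the high-affinity transporter GLUT3, lay between 2.79 and 3.49 on every array, and no difference passed. They ranged from -0.33 in L1P minus M1P to 0.29 in L2P minus L1P.

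Slc16a1, the lactate transporter MCT1, lay between 10.74 and 11.19 in all lines except M1P. It was 8.91, 10.29 and 10.62 in M1P, against 10.77, 10.93 and 11.01 in E1KD. All 3 M1P arrays lay below all E1KD arrays, array 1 by far the most. Slc16a1 fell by 0.96 ± 0.32 in M1P (adjusted p = 0.0402), and the call was lost without any 1 E1KD array. Without M1P array 1 the difference was -0.45 (adjusted p = 0.0658), so its size rests on that array. L2P at 10.94, 10.93 and 11.01 and L1P at 11.07, 11.15 and 11.10 were 0.05 ± 0.32 and 0.20 ± 0.32 above E1KD, and neither passed. Nor did E1KD minus NMuMG (-0.09 ± 0.32), whose NMuMG arrays were at 10.74, 11.05 and 11.19. L1P was higher than M1P by 1.16 ± 0.32 (adjusted p = 0.0162), or by 0.65 without M1P array 1, and L2P minus L1P, -0.15 ± 0.32, did not pass. Slc16a3, the lactate exporter MCT4 and a classical HIF-1 target, lay between 2.96 and 3.72 on all 15 arrays, with the highest value on M1P array 1. None of its differences passed. They ranged from -0.20 ± 0.16 in E1KD minus NMuMG to 0.28 ± 0.16 in M1P minus E1KD.

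**Figure D3:**
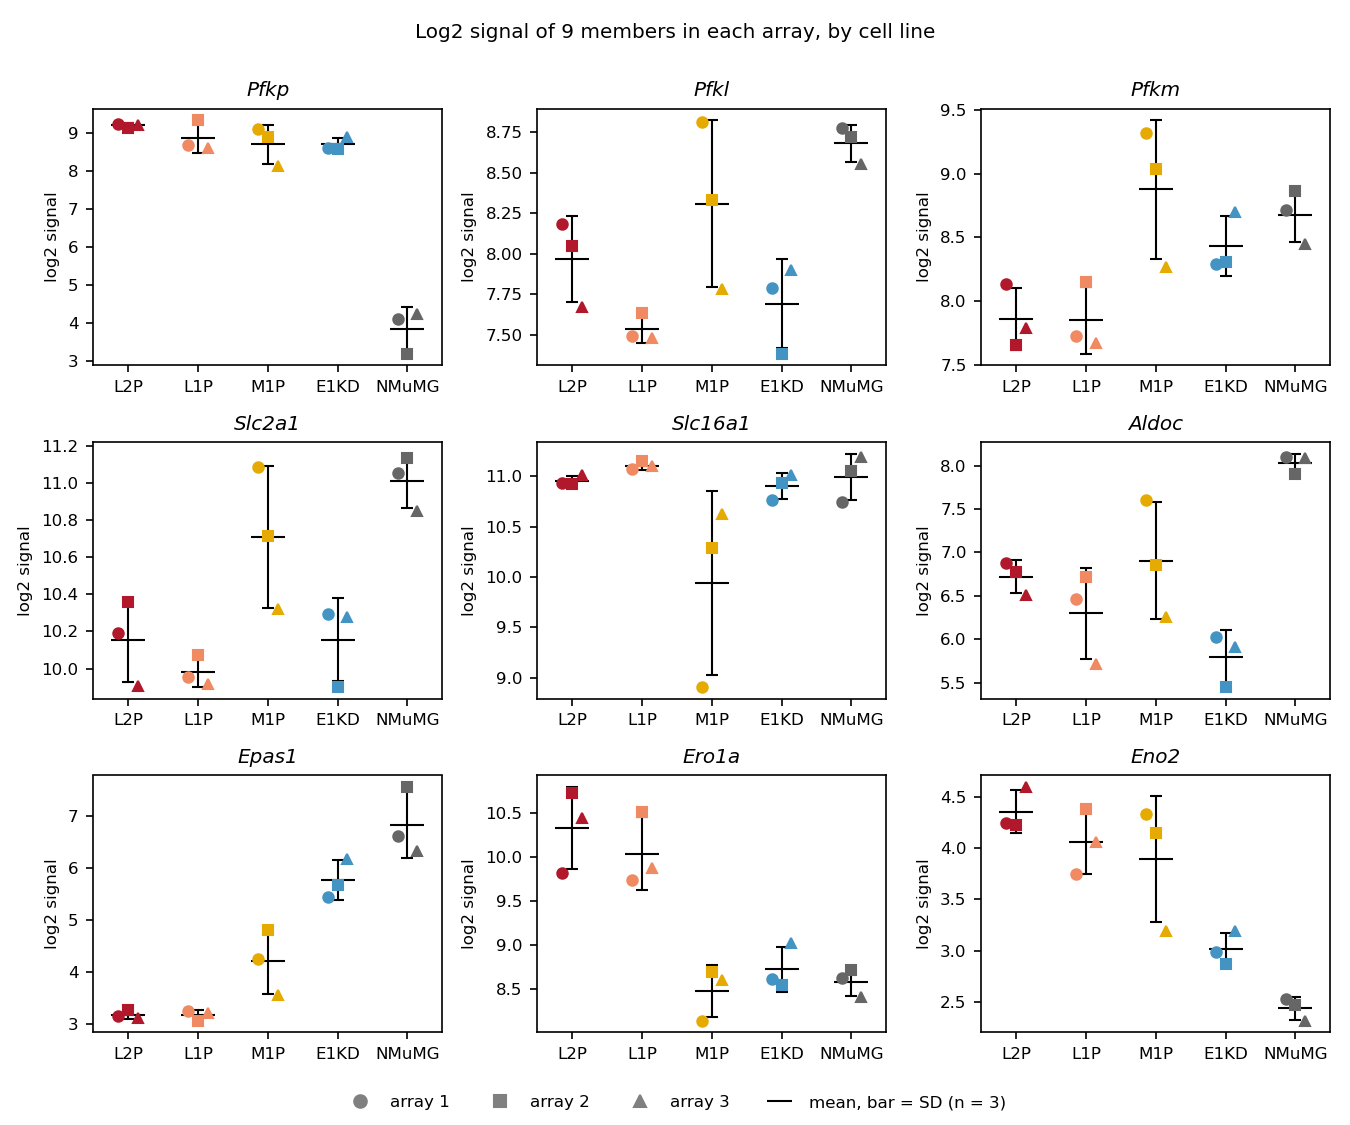
Log2 signal (y axis, own scale per panel) of 9 members on each array, by line from L2P at the left to NMuMG at the right; the horizontal line is the mean and the bar the SD of 3 arrays. Pfkp is above 8 in the 4 silenced lines and at or below 4.24 in NMuMG, and in M1P array 1 is often the array farthest from E1KD.

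The phosphofructokinase subunits showed the largest change in the set. Pfkp, the platelet subunit, read 8.62, 8.59 and 8.89 in E1KD, against 4.12, 3.20 and 4.24 in NMuMG. The NMuMG values lay close to or below the median of all signals and the E1KD values far above it. Pfkp rose by 4.85 ± 0.29 on the log2 scale (adjusted p = 2.64e-07), at least 22.5-fold (4.49) with NMuMG signals below the overall median raised to it, and under 15 alternative settings the adjusted p was at most 2.4e-05. Its other 2 probe sets were dim, with line means from 3.45 to 5.27, and differed by 0.31 and 0.38, so the size of the rise rests on 1 probe set. Pfkp stayed high in the passaged lines: 9.25, 9.14 and 9.22 in L2P, 8.68, 9.34 and 8.60 in L1P, and 9.10, 8.89 and 8.12 in M1P. None of the differences from E1KD passed (0.51 ± 0.29, 0.17 ± 0.29 and 0.01 ± 0.29), although the L2P arrays all lay above the E1KD arrays. L2P minus L1P was 0.33 ± 0.29 and L1P minus M1P was 0.17 ± 0.29, neither passing.

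Pfkl, the liver subunit, moved the other way in the silenced line. It was 7.79, 7.39 and 7.90 in E1KD, against 8.77, 8.72 and 8.55 in NMuMG. The values did not overlap, and Pfkl fell by 0.99 ± 0.23 (adjusted p = 0.0133), with its other probe sets at -0.90 and -0.48. The adjusted p was 0.0754 without E1KD array 2 and 0.0555 without NMuMG array 1. In M1P it was 8.81, 8.33 and 7.78, from the NMuMG level on array 1 to the E1KD level on array 3, and 0.62 ± 0.23 above E1KD did not pass (adjusted p = 0.0565). It was 8.18, 8.05 and 7.67 in L2P and 7.49, 7.63 and 7.48 in L1P. L2P minus E1KD was 0.28 ± 0.23, L1P minus E1KD -0.16 ± 0.23 and L2P minus L1P 0.43 ± 0.23, and none passed. L1P minus M1P was -0.77 ± 0.23 (adjusted p = 0.0212).

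Pfkm, the muscle subunit, was 8.29, 8.31 and 8.70 in E1KD, against 8.71, 8.87 and 8.45 in NMuMG. The groups overlapped, and the difference of -0.24 ± 0.25 did not pass. In the lung lines it was lower on every array than in E1KD, at 8.13, 7.66 and 7.79 in L2P and at 7.72, 8.15 and 7.68 in L1P. The differences of -0.57 ± 0.25 and -0.58 ± 0.25 had unadjusted p of 0.0369 and 0.0344 and did not pass after adjustment (0.357 and 0.412). M1P, at 9.32, 9.04 and 8.27, was 0.44 ± 0.25 above E1KD, which did not pass. L1P minus M1P was -1.02 ± 0.25 (adjusted p = 0.0103), a call that held without any 1 array, and L2P minus L1P was 0.01 ± 0.25.

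The balance of the subunits was then read within each array as the difference of 2 log2 signals. Different probe sets differ in brightness for the same amount of RNA, so only a change of this difference between lines is used. Pfkp minus Pfkl was 1.01 ± 0.19 in E1KD, against -4.83 ± 0.62 in NMuMG (SD, n = 3), and Pfkp minus Pfkm was 0.27 ± 0.07, against -4.82 ± 0.75. These shifts of 5.84 and 5.09 involve NMuMG signals of Pfkp near or below the overall median and were at least 5.48 and 4.73 with these raised to it. In the passaged lines Pfkp minus Pfkm lay on both sides of E1KD. It was 1.34 ± 0.20 in L2P, 1.02 ± 0.14 in L1P and -0.17 ± 0.04 in M1P, against 0.27 ± 0.07 in E1KD, and none of the 3 lines overlapped with E1KD. Pfkm minus Pfkl was -0.11 ± 0.26 in L2P, 0.32 ± 0.18 in L1P, 0.57 ± 0.12 in M1P, 0.74 ± 0.22 in E1KD and -0.01 ± 0.13 in NMuMG. Its arrays did not overlap between L2P and E1KD, between L2P and L1P, or between E1KD and NMuMG.

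Among the other pairs, Hk2 minus Hk1 stood at 0.41 ± 0.09 in L1P, -0.85 ± 0.22 in M1P and 0.53 ± 0.08 in E1KD. Its 3 M1P arrays were at -0.96, -0.60 and -0.98. Their SD was the largest of any line for this pair, where the other lines had 0.08 to 0.19. Aldoc minus Aldoa was -7.14 ± 0.21 in E1KD, against -4.71 ± 0.20 in NMuMG. Slc2a3 minus Slc2a1 was -7.10 ± 0.22 in E1KD, against -7.92 ± 0.21 in NMuMG, with Slc2a3 below the overall median in both lines. Slc16a3 minus Slc16a1 was -6.64 ± 1.28 in M1P, against -7.89 ± 0.11 in E1KD, with Slc16a3 below the overall median in both lines. Its M1P arrays were at -5.19, -7.13 and -7.60, so the size of this shift rests mainly on array 1. The arrays did not overlap in 19 of the 48 pair comparisons. The exact two-sided permutation test over 3 against 3 arrays cannot go below p = 0.1, which all 19 reached, and the smallest Benjamini-Hochberg value over the 48 was 0.253, so no pair passed.

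**Figure D4:**
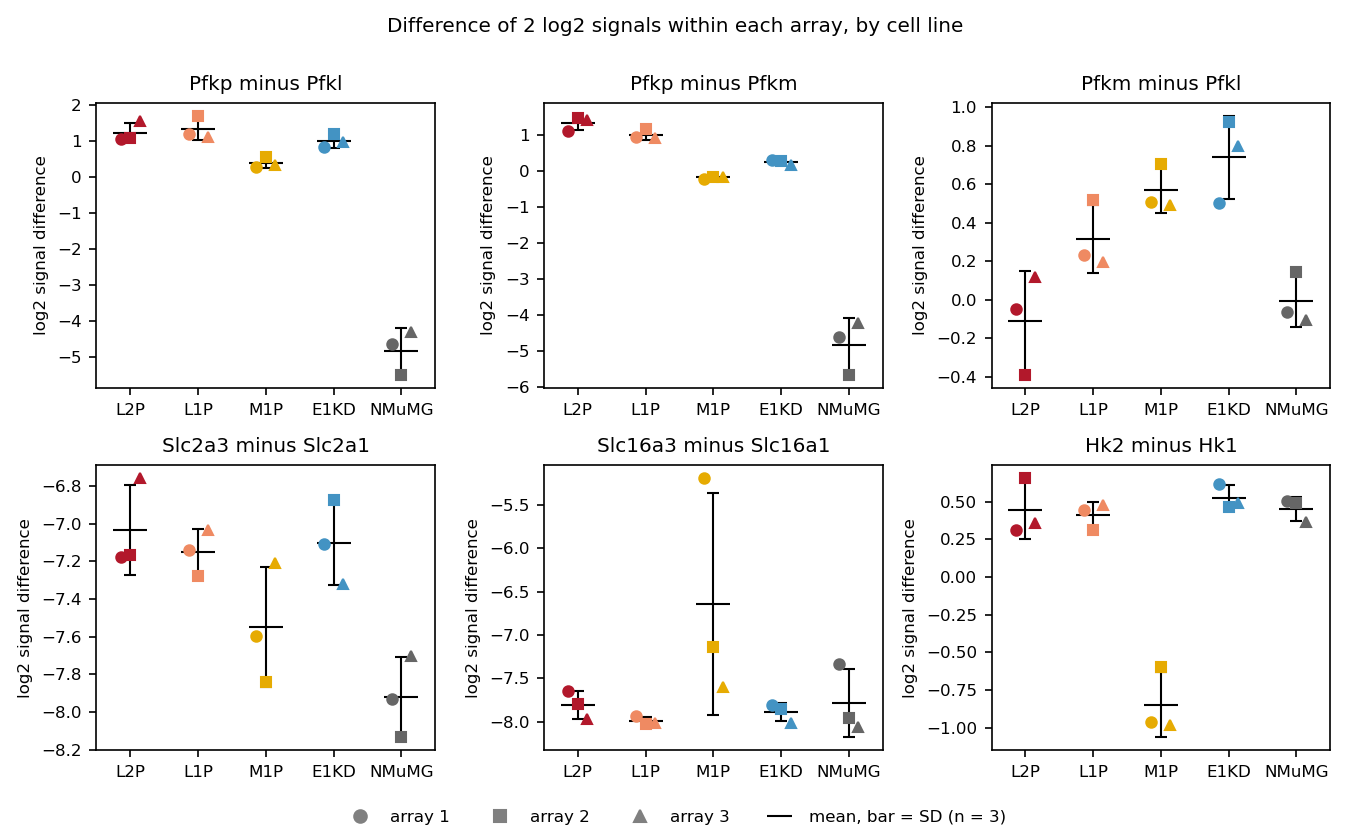
Difference of the log2 signals of 2 members on the same array (y axis, own scale per panel), for 6 pairs, by line from L2P at the left to NMuMG at the right; the horizontal line is the mean and the bar the SD of 3 arrays. Pfkp minus Pfkl and Pfkp minus Pfkm average -4.83 and -4.82 in NMuMG and are between -0.22 and 1.70 in the other lines, and Hk2 minus Hk1 is below 0 in M1P only.

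Of the other 10 glycolytic enzymes, Aldoc, the brain-type aldolase C, changed most in the silenced line. Aldoc read 6.03, 5.45 and 5.91 in E1KD, against 8.10, 7.90 and 8.09 in NMuMG. It fell by 2.23 ± 0.31, or 4.69-fold (adjusted p = 0.000433), and the call held under all 15 alternatives. A second, dim Aldoc probe set differed by -0.43. Aldoc was 7.60, 6.85 and 6.26 in M1P, above all E1KD arrays, and rose by 1.11 ± 0.31 (adjusted p = 0.0239), a call lost without M1P array 1 or E1KD array 2 or 3. In L2P, at 6.88, 6.77 and 6.51, it also lay above E1KD on every array, but 0.92 ± 0.31 did not pass (adjusted p = 0.161). L1P, at 6.47, 6.71 and 5.71, overlapped with E1KD.

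Eno2, the neuronal enolase, had low signals, highest in L2P. It was 4.24, 4.22 and 4.59 in L2P, 3.75, 4.38 and 4.06 in L1P, 4.34, 4.14 and 3.19 in M1P, 2.99, 2.87 and 3.19 in E1KD, and 2.53, 2.47 and 2.32 in NMuMG. Both lung lines lay above E1KD on every array, but only the L2P arrays all exceeded the overall median, and M1P overlapped with L1P. Eno2 rose by 1.34 ± 0.25 in L2P (adjusted p = 0.00795), by 1.05 ± 0.25 in L1P (adjusted p = 0.0479) and by 0.88 ± 0.25 in M1P (adjusted p = 0.0271), the last a call lost without M1P array 1 or 2 or E1KD array 1 or 2. With lower signals raised to the overall median the rises in L2P, L1P and M1P were at least 0.16, 0.06 and 0.05. The L2P call held under all alternatives, and the L1P call was lost without any 1 of the 6 arrays. E1KD minus NMuMG, 0.57 ± 0.25, did not pass (adjusted p = 0.207).

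The highly expressed enzymes of the main route moved less. Aldoa, the ubiquitous aldolase, was 13.56, 13.43 and 13.34 in M1P, against 13.02, 12.83 and 12.96 in E1KD. It rose by 0.51 ± 0.11 (adjusted p = 0.00859), a call kept without any 1 array, and its other 4 probe sets gave 0.32 to 0.72. Pgk1, phosphoglycerate kinase, was 13.01, 13.39 and 13.23 in M1P, against 13.56, 13.52 and 13.49 in E1KD, and fell by 0.31 ± 0.11 (adjusted p = 0.0499), a call lost without any 1 E1KD array and without M1P array 1 or 3. Hexokinase 2, Hk2, was 9.36, 9.54 and 8.49 in M1P, against 10.16, 9.88 and 10.10 in E1KD. It fell by 0.92 ± 0.26 (adjusted p = 0.0259), whereas Hk1, the housekeeping hexokinase, was 0.46 ± 0.23 higher and did not pass. The Hk2 call was lost without any 1 E1KD array, with adjusted p up to 0.068, and the difference was -0.60 without M1P array 3.

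Pgam1, phosphoglycerate mutase, was the enzyme that fell in L1P. It was 11.67, 11.48 and 11.59 in L1P, against 12.23, 12.08 and 12.11 in E1KD, and fell by 0.56 ± 0.12 (adjusted p = 0.0272). The call was lost without any 1 of the 6 arrays, with adjusted p from 0.0613 to 0.132. Pgam1 was 11.90, 11.66 and 11.62 in L2P, below E1KD on every array, but -0.41 ± 0.12 did not pass (adjusted p = 0.0952). In L1P against M1P, Pgam1 fell by 0.66, Pkm, pyruvate kinase, by 0.36 and Aldoa by 0.30, while Hk2 rose by 0.73 (adjusted p = 0.0032, 0.0401, 0.0424 and 0.0419 in this order). Tpi1, triosephosphate isomerase, and Pfkfb3, which makes the activator of phosphofructokinase, passed in no comparison. Tpi1 lay between 12.36 and 12.97 on all arrays and Pfkfb3 between 4.56 and 5.74.

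Ldha, the lactate dehydrogenase subunit that favours lactate, was bright in every line, between 12.81 and 13.36. It was 13.36, 13.20 and 13.22 in M1P, against 12.98, 12.83 and 12.81 in E1KD. All M1P arrays were higher, and Ldha rose by 0.39 ± 0.10 (adjusted p = 0.0159), with adjusted p of 0.0686 without E1KD array 2 and 0.0554 without E1KD array 3. Ldha fell in L1P against M1P by 0.38 ± 0.10 (adjusted p = 0.0125), which held without any 1 array. Ldhb, the heart-type subunit, fell by 0.59 ± 0.19 in L1P against M1P (adjusted p = 0.0306) and passed in no other comparison. Ldhb minus Ldha was -7.02 ± 0.16 in L2P, below all E1KD arrays at -6.71 ± 0.07. Pdk1, the kinase that shuts pyruvate dehydrogenase, passed nowhere. It read 7.97, 8.49 and 8.30 in L2P and 7.95, 8.16 and 8.24 in L1P, against 7.44, 7.40 and 7.87 in E1KD. The arrays did not overlap, but 0.68 ± 0.33 in L2P and 0.55 ± 0.33 in L1P did not pass (adjusted p = 0.481 and 0.724).

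Of the factors themselves, Epas1, which encodes HIF-2 alpha, differed most. It was 3.16, 3.28 and 3.13 in L2P, 3.25, 3.07 and 3.21 in L1P, 4.26, 4.82 and 3.56 in M1P, 5.45, 5.67 and 6.18 in E1KD and 6.62, 7.55 and 6.32 in NMuMG. The lung lines lay below the overall median, and only they overlapped with each other. Epas1 fell by 2.58 ± 0.32 in L2P (adjusted p = 0.000382) and by 2.59 ± 0.32 in L1P (adjusted p = 0.000519) against E1KD, and both calls held under every alternative. With lower signals raised to the overall median both falls were at least 1.57. It fell by 1.55 ± 0.32 in M1P (adjusted p = 0.0082) and fell in L1P against M1P by 1.03 ± 0.32 (adjusted p = 0.0274). The last difference was -0.23 with lower signals raised to the overall median, and its call was lost without any 1 L1P array and without M1P array 1 or 2. The difference of -1.06 between E1KD and NMuMG did not pass (adjusted p = 0.0602). A dimmer Epas1 probe set, with line means of 4.05 to 4.96, gave -0.05 in L2P, -0.23 in L1P and 0.36 in M1P against E1KD, so the falls rest on 1 probe set.

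Hif1a, which encodes HIF-1 alpha, was split among the M1P arrays. It was 10.62, 10.86 and 10.96 in L1P, 6.44, 8.58 and 10.18 in M1P, and 9.91, 10.46 and 10.09 in E1KD. Array 3 of M1P lay within the E1KD values and array 1 far below. M1P minus E1KD, -1.76 ± 0.69, did not pass, and L1P was higher than M1P by 2.42 ± 0.69 (adjusted p = 0.0198). Its adjusted p was 0.0573 without M1P array 1, with a difference of 1.44, and 0.0666 without L1P array 3, and the gene's other 3 probe sets gave -0.33, 0.80 and 2.20. Egln3, the prolyl hydroxylase PHD3, was 9.91, 10.07 and 9.70 in M1P, against 9.16, 8.77 and 8.72 in E1KD. It rose by 1.01 ± 0.18 (adjusted p = 0.00357), kept without any 1 array, and fell in L1P against M1P by 0.74 ± 0.18 (adjusted p = 0.0101). Egln1, the main hydroxylase PHD2, passed in no comparison and lay between 8.23 and 9.10.

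Among the hypoxia-induced genes, Ero1a, the oxidase that forms disulfide bonds in the endoplasmic reticulum, was high in both lung lines. It read 9.82, 10.72 and 10.44 in L2P, 9.73, 10.51 and 9.88 in L1P, 8.14, 8.69 and 8.61 in M1P, 8.61, 8.54 and 9.02 in E1KD and 8.62, 8.71 and 8.41 in NMuMG. All 6 lung line arrays lay above the other 9. Ero1a rose by 1.60 ± 0.25, or 3.04-fold, in L2P (adjusted p = 0.00223) and by 1.31 ± 0.25, or 2.49-fold, in L1P (adjusted p = 0.0126), and it was higher in L1P than in M1P by 1.56 ± 0.25 (adjusted p = 0.00168). All 3 of its probe sets gave the same direction, 1.60 to 1.69 in L2P and 1.31 to 1.58 in L1P. The L1P call was lost without E1KD array 1 (adjusted p = 0.0619), E1KD array 2 (0.0676) or L1P array 2 (0.0688). With the probe set of largest variance, whose differences were 1.69 and 1.58, the adjusted p was 0.26 in L2P and 0.375 in L1P.

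The collagen prolyl 4-hydroxylase subunits P4ha1 and P4ha2 each passed in 1 comparison. P4ha1 was 8.39, 8.62 and 8.21 in L2P, against 7.98, 7.56 and 7.68 in E1KD, and rose by 0.67 ± 0.15 (adjusted p = 0.0219). Its second probe set gave 0.66. The call was lost without E1KD array 2 or 3 or L2P array 1 or 2, with adjusted p from 0.0563 to 0.121. L1P, at 7.93, 7.79 and 7.89, lay below L2P on every array. L2P minus L1P was 0.54 ± 0.15, with the lowest unadjusted p of the members in that comparison (0.00313), and did not pass (adjusted p = 0.513). P4ha2 was 5.31, 5.19 and 4.88 in L2P, 4.89, 4.08 and 5.07 in L1P, 7.37, 6.38 and 6.03 in M1P and 5.81, 5.22 and 6.04 in E1KD. L1P was below E1KD on every array, yet -1.02 ± 0.33 did not pass, while L1P minus M1P was -1.92 ± 0.33 (adjusted p = 0.00231). That call held without any 1 array.

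Bnip3, a mitochondrial protein of mitophagy and cell death, was 8.80, 10.27 and 9.91 in L2P, against 8.17, 7.86 and 8.32 in E1KD. All L2P arrays were higher, but they spread widely, and 1.55 ± 0.46 did not pass (adjusted p = 0.0995). Ndrg1, a stress-induced gene often used as a hypoxia marker, was 9.49, 9.26 and 9.50 in E1KD, against 10.28, 10.09 and 10.10 in NMuMG. It fell by 0.74 ± 0.18 (adjusted p = 0.0175), with 4 further probe sets from -1.07 to -0.76, and the adjusted p was 0.0869 without E1KD array 2 and 0.0756 without NMuMG array 1. Angptl4, a secreted lipase inhibitor, was 8.69, 7.97 and 8.32 in M1P, against 7.51, 7.07 and 7.13 in E1KD. It rose by 1.09 ± 0.29 (adjusted p = 0.0198) and fell in L1P against M1P by 0.87 ± 0.29 (adjusted p = 0.0326). The first call was lost without M1P array 1 or E1KD array 2 or 3, and a second, dim probe set gave -0.03. Ankrd37, an ankyrin repeat gene, fell in L1P against M1P by 0.77 ± 0.23 (adjusted p = 0.0216). Car9, the cell surface carbonic anhydrase IX and a standard hypoxia marker, stayed between 2.78 and 3.54 on all arrays. It rose in M1P by 0.43 ± 0.14 (adjusted p = 0.043), within signals below the overall median, and the call was lost without any 1 of the 6 arrays. Adm, adrenomedullin, lay between 3.55 and 4.57 and passed nowhere.

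The M1P results depended on its arrays. Of the 12 calls against E1KD, 2 (Hk2 and Epas1) passed with array 3 as the lone M1P array, when 4.45% of all genes passed, and none with only these 2 lines fitted (0.368%). For both genes array 3 is the M1P array farthest from E1KD, with differences of -1.56 and -2.21, and a single array carries no M1P spread, so this is no check on the calls. Aldoa, Egln3 and Epas1 kept their call without any 1 array. The count was 5 without M1P array 1 (11.1% of all genes), 20 without M1P array 3 (46.8%), and 6, 3 and 4 without E1KD arrays 1, 2 and 3 (17.2%, 6.08% and 13.2%). Of the 17 calls in L1P against M1P, 3 (Hk2, P4ha2 and Ero1a) passed with array 3 as the lone M1P array, where 4 members and 7.29% of all genes passed. The Hk2 difference was 1.37 there and 0.41 without array 3 (adjusted p = 0.121), so it rests on that array. The count was 8 without M1P array 1 (17.9% of all genes), 11 without L1P array 2 (24.9%), 6 without L1P array 3 (13.7%), and 1 with only these lines (1.58%). Of the 17, Egln3, Ero1a, Ldha, P4ha2, Pfkm and Pgam1 kept their call without any 1 array. Slc2a1 and Slc16a1 lost theirs without L1P array 3 alone (adjusted p = 0.0528 and 0.0531). Pfkl lost its call without L1P array 1 or 3 or M1P array 1, Ldhb and Angptl4 without L1P array 2 or 3 or M1P array 1, and Ankrd37 without L1P array 3 or M1P array 1. Hk2, Aldoa and Pkm lost theirs without any 1 L1P array and without M1P array 1, and also without M1P array 3 for Hk2 and array 2 for Aldoa and Pkm. All 12 and all 17 kept their sign under every alternative tried. Their arrays did not overlap between the lines compared, so leaving out arrays could not change it. Most genes of the marker lists were higher in M1P, where all genes had a median of 0.20. Of 43 markers of other cell types 41 were higher than in E1KD, but 5 rose (11.6%, against 17.7% of all genes) and 1 fell, the adipocyte marker Fabp4 (-0.87), below the overall median in both lines. Of 8 mammary epithelial markers 7 were higher and Krt19 rose (0.68). Of 8 fibroblast markers 7 were higher than in E1KD and Col1a2 rose, with a mean log2 signal per array of 3.58 to 4.33 in M1P, against 3.35 to 3.46 in E1KD, and 6 of 8 below the overall median in M1P. All 7 endothelial markers were higher and Kdr rose (3.53 to 3.69 in M1P, against 3.24 to 3.52 in E1KD). All 6 lung epithelial markers were higher, and Foxj1 and Ager rose (4.66 to 5.39 in M1P, against 4.31 to 4.46 in E1KD). All 6 skeletal muscle markers were higher and Acta1 rose (4.06 to 4.47 in M1P, against 3.79 to 3.98 in E1KD), with Ckm, muscle creatine kinase, at 5.18 in M1P and 4.88 in E1KD. All 9 macrophage and leukocyte markers were higher and none passed (4.44 to 4.92 in M1P, against 4.28 to 4.39 in E1KD). In L1P against M1P 4 of the fibroblast, 3 of the lung epithelial, 3 of the macrophage and leukocyte, 2 of the skeletal muscle and 1 of the endothelial markers fell, 13 of the 43 (30.2%, against 25.9% of all genes). With lower signals raised to the overall median, the differences of Col1a2, Pdgfrb and Thy1 were -0.99, -0.31 and -0.04. Those of Col3a1 and the leukocyte marker Tyrobp were then 0. In M1P 5 of 7 endothelial and 5 of 9 macrophage and leukocyte markers lay below that median. So did 3 of 6 lung epithelial and 3 of 6 skeletal muscle markers. The part of the 43 markers in these results was not tested. In RNA from a whole culture fewer cells of a type and less RNA per cell cannot be told apart. Control probe sets gave a 3′ minus 5′ difference for Gapdh of 0.25 to 0.45 in M1P and 0.32 to 0.39 in E1KD. For beta-actin it was 0.640 to 0.769 in M1P, against 0.773 to 0.932 in E1KD, without overlap.

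In E1KD against NMuMG the other members of these pathways included 2 large changes. Ak4, a mitochondrial adenylate kinase induced by hypoxia, rose by 3.36 ± 0.24, at least 5.76-fold with NMuMG signals, all below the overall median, raised to it, and Pklr, the liver and red cell pyruvate kinase, fell by 3.64 ± 0.28 (12.5-fold). Of all genes 3% rose and 6.49% fell in this comparison. Of 17 further genes of glycolysis and glucose handling 0 rose and 2 fell, Pklr and the muscle enolase Eno3 (-1.73 ± 0.20). Of 13 genes of mitochondrial pyruvate use 1 rose, Pdhb of the pyruvate dehydrogenase complex (0.56), and 2 fell, Pdhx of the same complex (-0.63) and Bsg, the partner of the lactate transporters (-0.57). Of 7 pentose phosphate genes 1 rose, transketolase Tkt (0.55), and 2 fell, H6pd (-1.66) and Pgd (-0.53). The Tkt, Pgd and Bsg calls were lost without any 1 of the 6 arrays, and the Pdhx call without E1KD array 2. The Pdhb call was lost with 75th percentile scaling and with the probe set of largest variance. Of 14 genes of oxygen sensing 0 rose and 5 fell, among them Vhl (-0.72), which targets the HIF alpha subunits for degradation, and their partner Arnt (-0.63). Both of these calls were lost with the probe set of largest variance (adjusted p = 0.52 and 0.193). The other falls, of Egln2, Hif1an and Elob, lost their calls without any 1 of the 6 arrays. Of 27 other hypoxia-induced genes 1 rose, Ak4, and 2 fell, carbonic anhydrase Car12 (-2.17 ± 0.26) and Higd1a (-0.50), the last with 0.15 at its probe set of largest variance. The Pklr, Eno3, Ak4, Car12 and H6pd calls held under all 15 alternatives.

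In the lung lines few of these genes moved. Against E1KD 2.14% of all genes rose and 1.64% fell in L2P, and 1.19% rose and 1.29% fell in L1P. Eno3 rose by 1.38 ± 0.20 in L2P and by 1.06 ± 0.20 in L1P against E1KD. Hif1an, the asparagine hydroxylase that blocks HIF transactivation, fell by 0.84 ± 0.18 in L2P and by 0.80 ± 0.18 in L1P. The Eno3 call in L1P was lost without E1KD array 2 or L1P array 2, and the Hif1an call was lost without any 1 of the 6 arrays in L1P and without E1KD array 1 or 3 or L2P array 2 or 3 in L2P. These were the lone calls of the 17 glycolytic and 14 oxygen sensing genes in both lines, apart from Bpgm (-0.56) in L2P, which was lost without any 1 E1KD array and without L2P array 2 or 3. In L2P 2 of the 27 other hypoxia-induced genes rose, Car12 (1.47 ± 0.26) and the secreted hormone Stc1 (0.71 ± 0.13), and in L1P none passed. No gene of pyruvate use or of the pentose phosphate pathway passed in either line. Car12 was the lone gene of the 5 lists that passed in L2P against L1P, where 0.143% of all genes did. It was higher by 1.63 ± 0.26 (adjusted p = 0.0225), or by at least 1.48 with lower signals raised to the overall median. That call was lost without L2P array 1 or 2 or L1P array 1 or 3, while Car12 in L2P against E1KD held under all 15 alternatives.

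In M1P against E1KD, Eno3 rose by 2.59 ± 0.20 (6.02-fold, adjusted p = 8.27e-06), and its call held under all alternatives. Eno3 averaged 9.99 in L2P, 9.67 in L1P, 11.21 in M1P, 8.62 in E1KD and 10.35 in NMuMG. The skeletal muscle markers were higher in M1P too, as were 41 of 43 markers of other cell types, and a link was not tested. Without M1P array 1 the M1P differences of Slc2a6, Pcx, Pdha1, Cul2 and Kdm3a given below were 0.53, 0.63, -0.74, -0.74 and -1.07. Of these genes only Pdha1 then kept its call. Of all genes 17.7% rose and 9.86% fell in M1P against E1KD. In total 6 of the 17 further glycolytic genes rose, the glucose transporter Slc2a6 by 0.83 among them, and 0 fell. Among 13 genes of pyruvate use pyruvate carboxylase Pcx and the kinase Pdk2 rose (1.03 and 0.76), and Pdha1, a subunit of pyruvate dehydrogenase, and Pdp2, a phosphatase that activates it, fell (-1.35 and -0.83). Pgls, Taldo1 and Pgd made 3 rises among 7 pentose phosphate genes (1.01, 0.64 and 0.44). Oxygen sensing genes split into 3 that rose, with Egln2 (0.88) and Hif3a (0.58), and 3 that fell, with the coactivator Crebbp (-1.46) and Cul2 (-1.37), the scaffold of the Vhl ligase. Of 27 other hypoxia-induced genes 2 rose, Kdm4b (0.64) and Higd1a (0.46), and 5 fell, with the transferrin receptor Tfrc (-2.58 ± 0.78) and the histone demethylase Kdm3a (-1.90 ± 0.58) lowest. L1P against M1P gave 1 and 10 of the 17 (Pfkfb2 1.15, Eno3 -1.53, Slc2a6 -0.77), 1 and 4 of the 13 (Dld 1.82, Pcx -0.97, Pdk2 -0.57) and 0 and 3 of the 7 (Pgls -0.54, Taldo1 -0.48) as risen and fallen. It gave 4 and 4 of the 14 (Cul2 1.38, Crebbp 1.13, Egln2 -1.13, Hif1an -1.03) and 6 and 5 of the 27 (Tfrc 2.37, Plod2 2.17, Stc2 -1.37, Gys1 -0.77). Of all genes 13.6% rose and 25.9% fell in L1P against M1P. Without M1P array 1 the L1P minus M1P differences of Pfkfb2, Slc2a6, Pcx, Pgls, Cul2, Crebbp, Tfrc and Plod2 were 0.71, -0.47, -0.58, -0.28, 0.75, 0.69, 1.51 and 1.24. Of these genes only Plod2 then kept its call. Pdk2 lay below the overall median in both lines of both comparisons. Slc2a6 had means below it in E1KD and L1P. With lower signals raised to it, the Slc2a6 differences were 0.68 in M1P minus E1KD and -0.66 in L1P minus M1P. Array 3 as the lone M1P array carries no M1P spread, so it gives no check on the calls of these lists. Vegfa, among the falls in M1P against E1KD, was at -0.72. Without M1P array 3 it was at -0.48 and lost its call (limma adjusted p = 0.0881), so it rests on that array.

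The genes whose pattern over the 15 arrays was most like that of Pfkp were Ckap4 (Pearson r = 0.987), Emp2 (0.982), Zfp647 (0.977), Lhfp (0.975) and Nr2f1 (0.973). Each was low on the 3 NMuMG arrays and high on the other 12, and that split is shared by the points the correlation is taken over.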

How the data were processed

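RNA of 15 samples, 3 from each of 5 lines, was hybridised to Affymetrix 3′ expression arrays after labelling 100 ng of total RNA. The deposited tables hold log2 signals per probe set, per the files' values. RMA, Affymetrix Expression Console and MAS5 are named in the submitters' processing notes, without roles; the values fit a log2 scale, and no version or further step of the authors' normalization is stated there. RMA-like values share a between-array scaling, which can move all genes of a line together.

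Of 45101 probe sets, 34945 carried 1 gene symbol in the platform annotation, 932 several, 9160 none, and 64 were controls. Symbols of 34741 were updated through Entrez identifiers in RefSeq. Each gene was represented by whichever of its probe sets was brightest on average, and 18193 genes were tested without a filter on low signals. limma (version 3.58.1, R 4.3.3) was fitted to the log2 signals of all 15 arrays with 1 coefficient per line and no covariate, and 6 contrasts were tested with two-sided moderated statistics (10 residual and 2.98 prior degrees of freedom). Adjusted p is Benjamini-Hochberg over all genes, called under 0.05. SE is limma's moderated standard error. The precision is limited by 3 arrays per line. No 2 arrays were identical. Pairs of isoforms were compared by exact permutation. The tests were tried on simulated data.

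The members and lists were chosen with earlier results of these data known. Named are the phosphofructokinase subunits and transporters in every comparison, every member called, and the 2 largest called rises and falls of each other list; further genes were named after their values were seen. Alternatives were other scalings, a filter on dim probe sets, another probe set per gene, array weights, a replicate block, and arrays or lines left out. Same-numbered arrays deviated together in some pairs and not in others (r over 0.1 in 8 of 18), so numbers were not taken as pairs.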

Additional observations from a re-analysis of the deposited data

Results flagged for a closer look

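In each of 17 members the change of the lung line L1P against E1KD differed from the change of the tumour line M1P against E1KD, tested directly as L1P minus M1P (limma adjusted p under 0.05, log2 scale). The difference was positive for Hif1a (2.42), Ero1a (1.56), Slc16a1 (1.16) and Hk2 (0.73). It was negative for P4ha2 (-1.92), Epas1 (-1.03), Pfkm (-1.02), Angptl4 (-0.87), Pfkl (-0.77), Ankrd37 (-0.77), Egln3 (-0.74), Slc2a1 (-0.72), Pgam1 (-0.66), Ldhb (-0.59), Ldha (-0.38), Pkm (-0.36) and Aldoa (-0.30). The E1KD values cancel in this difference, so these are the same 17 calls of L1P against M1P given above. Of all genes 39.5% differed between L1P and M1P. The M1P arrays lie far apart, and 3 of the 17 (Hk2, P4ha2 and Ero1a) passed with array 3 as the lone M1P array, which carries no M1P spread. Without that array the Hk2 difference was 0.41 (adjusted p = 0.121). The part of that spread in the differences was not tested.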

How the results depend on the processing

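Alternatives moved the counts with and without M1P, along with the share of all genes called. The members called in E1KD against NMuMG, M1P, L1P and L2P against E1KD, L2P against L1P, and L1P against M1P were 5, 12, 4, 4, 0 and 17 as reported. With array weights they were 12, 0, 8, 13, 2 and 0 (26.2%, 0.901%, 11.8%, 18.5%, 1.01% and 2.39% of all genes). The weight estimate stopped before it converged and gave the M1P arrays weights of 0.16, 0.0049 and 0.44. Without all M1P arrays the counts were 8, 5, 8 and 0 in the comparisons left (19%, 5.45%, 7.43% and 0.379% of all genes). With only the lines compared they were 8, 0, 6, 6, 0 and 1 (18.9%, 0.368%, 6.57%, 4.77%, 0.198% and 1.58%). Leaving out 1 array gave 2 to 6 in E1KD against NMuMG (5.49% to 6.84% of all genes). Against E1KD it gave 3 to 20 in M1P (6.08% to 46.8%), 1 to 2 in L1P (1.5% to 1.64%) and 3 to 4 in L2P (2.33% to 3.31%). It gave 0 in L2P against L1P (0.0989% to 0.187%) and 6 to 22 in L1P against M1P (13.7% to 54.2%). Scaling to the 75th percentile gave 2 in L1P against E1KD (1.86% of all genes) and 5 in L2P against E1KD (2.66%). It moved the median of all genes to 0.43 from 0.20 in M1P minus E1KD and to -0.51 from -0.25 in L1P minus M1P. Under a replicate block the counts were 7, 17, 3, 5, 0 and 20 (12%, 38%, 3.3%, 4.65%, 0.165% and 47.9% of all genes). Deviations of same-numbered arrays from their line means, taken over all genes, correlated at -0.496 to 0.618, over 0.1 in 8 of 18 pairs. Those of the arrays numbered 1 correlated at 0.374 to 0.580 in the 5 comparisons among silenced lines and at -0.0567 between E1KD and NMuMG. Not every pair passed 0.1, so the numbers were not taken to pair the samples.

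Every called member kept its sign under all alternatives. The arrays of the lines compared did not overlap for any called member, so leaving out arrays or lines could not change the sign. Members called under all alternatives were Pfkp and Aldoc in E1KD against NMuMG, Epas1 in L1P, and Eno2 and Epas1 in L2P. With the probe set of largest variance Higd1a in E1KD minus NMuMG turned to 0.15 (limma adjusted p = 0.735; -0.50 as reported) and Arnt in L1P minus M1P to -0.48 (adjusted p = 0.172; 0.37 as reported), at another probe set of the gene. Of the 19 isoform pair comparisons without overlap, 0 of 171 alternatives changed the sign. Most of these left out arrays, which cannot change the sign where arrays do not overlap. Eno2 minus Eno1 was not run because Eno1 was not analysed here. The cause of the lost calls was not tested. Signals below the overall median, as for Slc2a3, Slc16a3, Adm and Car9, limit what their differences show.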
